A study of Mus musculus with 16 samples.

Results

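RNA-seq libraries of bone marrow-derived macrophages (BMDM) were examined for the genes that carry RNA polymerase II from its pause near the start site into productive elongation. The list held 9 genes, named for their role in this step: *Cdk9*, *Ccnt1*, *Ccnt2*, *Hexim1*, *Brd2*, *Brd3*, *Aff4*, *Ell* and *Ell2*. All 9 were among the 9614 genes of the deposited table. The study compared C57BL/6 male mice, 8 weeks old per the labels, of 2 genotypes, both carrying LysM-Cre. Those labelled LysM-Cre:NELF-B wt/wt kept intact NELF-B and are called WT, while those labelled LysM-Cre:NELF-B fl/fl had both copies floxed and are called NELF-B KO or KO. From 3 mice per genotype, BMDM received LPS (10 ng/ml), the endotoxin of Gram-negative bacteria, for 1 hr (n = 3 per genotype), LPS together with 100 nM dexamethasone (Dex), a synthetic glucocorticoid (n = 3 per genotype), or no treatment (n = 2 per genotype). Mice of each genotype carry the letters A, B and C here, and mouse C had no untreated library in either genotype. The Cre is driven by *Lyz2*, a locus of myeloid cells, so deletion was limited to cells that had used that locus.

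Pol 2 that has begun a transcript often stops a short way downstream, held by NELF, a complex of which NELF-B is a subunit, together with DSIF. The kinase P-TEFb, made of Cdk9 and a cyclin T, phosphorylates NELF, DSIF and the Pol 2 tail and so allows elongation. A large share of P-TEFb is kept inactive by Hexim1 in the 7SK ribonucleoprotein, and active P-TEFb works within assemblies that contain the scaffold Aff4 and an ELL factor (the super elongation complex) or is brought to acetylated chromatin by BET proteins. Macrophages rely on this step for rapid induction of inflammatory genes. The 9 genes therefore divide into the kinase (*Cdk9*), its cyclins (*Ccnt1*, *Ccnt2*), its inhibitor (*Hexim1*), BET proteins (*Brd2*, *Brd3*), a scaffold (*Aff4*) and ELL elongation factors (*Ell*, *Ell2*).

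The deposited values were log2 CPM, read counts of each gene scaled to a common library size, and the libraries held 25030932 to 49730079 reads on these genes. The lowest member in any library was *Ccnt2* in the untreated WT library of mouse A, with 383 reads, so that counting error was small for every member. *Nelfb*, the deleted gene, lay between 5.59 and 6.21 log2 CPM in the WT libraries and between 3.27 and 4.38 in the KO libraries, without overlap. Of the 8 macrophage markers all were in the table, with *Emr1* (F4/80) at 10.97 to 12.51 log2 CPM and *Lyz2* at 4.30 to 6.33. All 4 fibroblast markers were in it too, with 1 of 4 B cell and 1 of 4 neutrophil markers. None of the 3 T cell or 3 dendritic cell markers was, but the filter that set the genes of the table is not known. The untreated WT library of mouse A stood apart from the rest: its correlation across genes with the other 15 libraries was 0.83 to 0.909, against 0.924 to 0.993 among those 15. In that library genes with long exons were lower relative to the untreated WT library of mouse B (Spearman's rho of the difference with exon length -0.527 over 9211 genes, which are not independent replicates). Within the treated groups mouse C was lower for long genes than mice A and B, with rho between 0.253 and 0.502, and mice A and B differed little, with rho between -0.016 and 0.073. Results that rest on the untreated WT library of mouse A are given below with and without it. Without it the untreated WT group is 1 library, that of mouse B. Comparisons with untreated WT cells are then given as effect sizes. Comparisons that do not use the omitted library keep their difference in a given fit, and only the estimated spread changes.

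Promoter windows from RefSeq (GRCm38.p6, 250 bases before to 50 after each annotated start) matched all 9 genes, with 3 windows for *Brd2* and 1 for each of the others. The windows below belong to the 4 genes that limma called higher with LPS in the WT with mouse as a block (below). The fit of 6 groups called only *Brd2* and *Ell2* of these. The windows are shown because they share an element, picked out from several motifs searched. Each is printed 5′ to 3′ on the strand of the gene, and the capitals mark the element TGACG on either strand, the core of the site that CREB and ATF factors bind. For *Brd2* the window of its second start is given, which is the only one of its 3 that holds the element.
*Brd2* (chr17:34121698-34121997, minus strand): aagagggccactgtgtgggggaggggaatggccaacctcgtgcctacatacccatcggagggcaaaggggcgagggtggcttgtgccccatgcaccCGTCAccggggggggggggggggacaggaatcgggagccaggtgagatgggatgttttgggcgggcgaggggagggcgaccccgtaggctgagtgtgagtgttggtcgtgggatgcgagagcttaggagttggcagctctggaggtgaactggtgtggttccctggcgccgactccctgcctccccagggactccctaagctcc
*Ell2* (chr13:75707234-75707533, plus strand): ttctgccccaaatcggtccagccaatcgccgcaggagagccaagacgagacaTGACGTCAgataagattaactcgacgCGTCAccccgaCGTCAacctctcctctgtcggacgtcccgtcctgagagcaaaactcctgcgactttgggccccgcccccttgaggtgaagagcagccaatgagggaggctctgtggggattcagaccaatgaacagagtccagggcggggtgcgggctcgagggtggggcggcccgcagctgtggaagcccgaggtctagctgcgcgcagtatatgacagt
*Ccnt1* (chr15:98567687-98567986, minus strand): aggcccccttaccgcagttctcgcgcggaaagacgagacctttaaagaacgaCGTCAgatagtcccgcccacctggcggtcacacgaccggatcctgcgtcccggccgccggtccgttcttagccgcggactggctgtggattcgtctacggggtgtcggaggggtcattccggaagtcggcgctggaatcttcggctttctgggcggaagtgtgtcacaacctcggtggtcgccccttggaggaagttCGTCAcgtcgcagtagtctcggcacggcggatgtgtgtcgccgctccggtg
*Aff4* (chr11:53350517-53350816, plus strand): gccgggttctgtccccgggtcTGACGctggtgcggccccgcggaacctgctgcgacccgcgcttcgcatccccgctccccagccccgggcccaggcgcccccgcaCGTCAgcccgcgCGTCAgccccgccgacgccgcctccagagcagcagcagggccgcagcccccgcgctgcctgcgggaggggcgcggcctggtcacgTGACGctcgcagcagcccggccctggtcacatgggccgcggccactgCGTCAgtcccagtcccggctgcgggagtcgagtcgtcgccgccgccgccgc

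The element occurred 5 times in the *Aff4* window, 4 times in that of *Ell2*, 2 times in that of *Ccnt1* and 1 time in the second window of *Brd2*. It was not found in the windows of *Cdk9*, *Ccnt2*, *Hexim1*, *Brd3* or *Ell*, although *Ell* was also higher with LPS in each of 4 mice, by 0.003 to 0.15 on the log2 scale and without a call. Of the 11 windows of the members, 4 held it. Of all 32851 windows of the RefSeq table, 20.8% held it at least 1 time and 1.03% held it 3 or more times. In *Ell2*, 2 of the matches overlap to form an 8-base palindrome upstream of the start site, and in *Aff4* 1 match overlaps an E-box (CACGTG). A kappa-B motif (GGGNNNNNCC) was found in at least 1 window of 7 of the 9 genes, *Hexim1* and *Brd3* being without it. The third window of *Brd2* was also without it. The motif was in 50.8% of all windows, a share that counts windows and not genes. The glucocorticoid receptor element AGAACA was found only near *Brd3* among the members (19.0% of all windows), and TATAAA near none (13.6% of all windows). Such matches describe the letters of these windows and do not show that a factor was bound. A link of any of these motifs to the LPS response was not tested.

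Levels of the 9 genes were compared per kb of exon, since longer transcripts give more reads. In untreated WT BMDM the mean level was highest for *Hexim1* (5.27 log2 CPM per kb) and *Cdk9* (5.13), followed by *Brd2* (4.75), *Ell2* (3.57), *Ell* (3.41), *Aff4* (2.72), *Brd3* (2.13), *Ccnt1* (1.74) and *Ccnt2* (1.03). In the untreated library of mouse B alone, *Cdk9* (4.96) and *Brd2* (4.95) were level, and *Ccnt1* (2.25) was above *Brd3* (2.02). In mouse A *Cdk9* (5.31) was above *Hexim1* (5.05). With LPS the mean of *Brd2* was the highest in both genotypes, at 5.47 log2 CPM per kb in the WT and 6.20 in the KO. In the WT LPS group the order of *Brd2* and *Hexim1*, of *Hexim1* and *Cdk9* and of *Aff4* and *Ell* was not resolved, since the libraries of each pair overlapped. *Ccnt1* was above *Ccnt2* per kb in each of the 16 libraries. The exon lengths are those of all annotated transcripts together, so a gene with a short main isoform is placed too low.

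**Figure D1:**
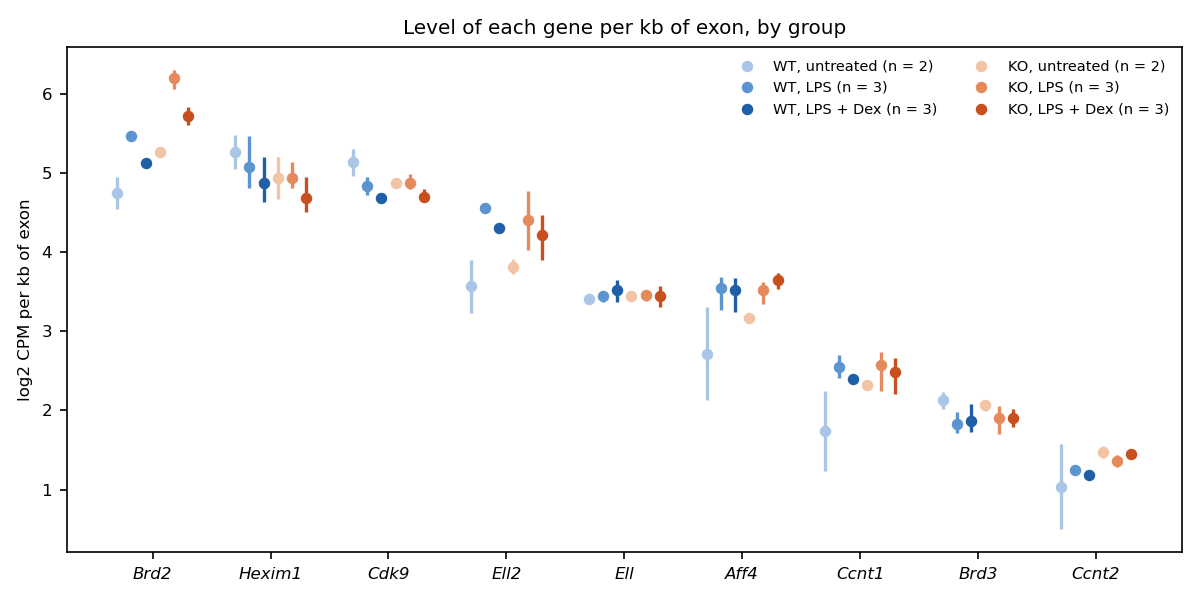
Level of each of the 9 genes per kb of exon (vertical axis, log2 CPM per kb) in the 6 groups of BMDM libraries. Points are group means and bars run from the lowest to the highest library. *Brd2* in KO BMDM with LPS is the highest of all, and the long bar of *Ccnt2*, *Ccnt1* and *Aff4* in untreated WT cells comes from the library of mouse A.

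*Brd2*, which encodes a BET protein that binds acetylated histone H4, was called in 3 comparisons by the fit of 6 groups, more than any other member. It was higher with LPS in both genotypes, lower with LPS + Dex than with LPS in each of 6 mice, and higher in the NELF-B KO than in the WT in each treatment. In untreated cells *Brd2* was at 7.52 and 7.92 log2 CPM in WT mice A and B and at 8.23 and 8.25 in KO mice A and B. With LPS it was at 8.46, 8.38 and 8.47 in the WT (mice A to C) and at 9.21, 9.27 and 9.03 in the KO. With LPS + Dex it was at 8.14, 8.03 and 8.12 in the WT and at 8.81, 8.69 and 8.58 in the KO. The LPS libraries lay above the untreated and the LPS + Dex libraries of the same genotype without overlap, and each KO library lay above each WT library of the same treatment. Of all genes in the table, 1.88% had each KO library above each WT library in every treatment, and *Brd2* was the only member among them.

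The LPS-induced rise of *Brd2* was 1.65-fold in the WT (log2 difference 0.72, SE 0.13, adjusted p = 0.00308, limma) and 1.91-fold in the KO (log2 difference 0.93, SE 0.13, adjusted p = 0.000383). In a bulk library, more transcript per cell and more cells with the transcript cannot be told apart. Without the untreated WT library of mouse A, and with libraries compared within each mouse, the rise in the WT was smaller (log2 difference 0.46). That in the KO was 1.00 (SE 0.04, adjusted p = 1.13e-09, limma). The difference between these responses was then 0.54, with mouse B as the only untreated WT library. Within single mice the rise was 0.95 in WT mouse A, 0.46 in WT mouse B, 0.98 in KO mouse A and 1.03 in KO mouse B. The omitted mouse was thus close to the KO mice. With that library included the difference was 0.21, with a 95% interval from -0.18 to 0.60 (adjusted p = 0.69), so the larger response of the KO depends on the omission of 1 library. The fit within each mouse that omits this library was chosen after seeing the data.

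In KO against WT cells *Brd2* was 1.67-fold higher with LPS (log2 difference 0.74, SE 0.11, adjusted p = 0.0214), and it was the only member called, against 0.146% of all genes. With LPS + Dex the difference was 0.60 (SE 0.11) with an adjusted p of 0.0795, which became 0.0234 when the mouse letter was added as a block. Without the untreated WT library of mouse A the same blocked fit gave an adjusted p of 0.000576. In untreated cells the difference was 0.52 (SE 0.14), at an adjusted p of 0.324 that did not pass the threshold. Without the untreated WT library of mouse A it was 0.32. The call with LPS was lost on leaving out the LPS library of WT mouse A or C or of any of the 3 KO mice (limma, adjusted p 0.0608 to 0.159). The log2 difference stayed between 0.69 and 0.81. Other transcripts moved with genotype as well: *Lyz2*, the locus that holds the Cre, was at 4.30 to 5.30 log2 CPM in the WT and at 5.38 to 6.33 in the KO. The 4 fibroblast markers summed to 64.4 to 111 CPM in WT and 99.7 to 125 CPM in KO cells with LPS. *S100a8*, the only neutrophil marker of 4 in the table, was at 5.46 to 20.5 CPM and 13.9 to 36.3 CPM in the same groups, and *Cd79b*, the only B cell marker of 4, at 13.9 to 27.0 CPM and 15.1 to 35.0 CPM. The part of these cells in the *Brd2* difference was not tested.

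*Brd2* was lower with LPS + Dex than with LPS within every mouse, by 0.32 to 0.35 on the log2 scale in WT mice and by 0.40 to 0.58 in KO mice. In the fit of all groups this did not pass the threshold in the WT (log2 difference -0.34, SE 0.11, adjusted p = 0.535) or the KO (log2 difference -0.48, SE 0.11, adjusted p = 0.0895). With mouse as a block the KO value passed (adjusted p = 0.0412, 2.57% of all genes called). With the untreated WT library of mouse A also left out, both passed, the WT at an adjusted p of 3.28e-05 and the KO at 1.37e-06. That library is on neither side of the Dex comparison, so its omission changed the estimated spread and not the difference. The Dex response of *Brd2* differed between the genotypes by -0.14, with a 95% interval from -0.49 to 0.21. In the exons of *Brd2*, 360 of 7826 bases are shared with *H2-DMa* on the opposite strand and 405 with an antisense transcript, and the strand setting of the counting is not given in the sources used here.

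**Figure D2:**
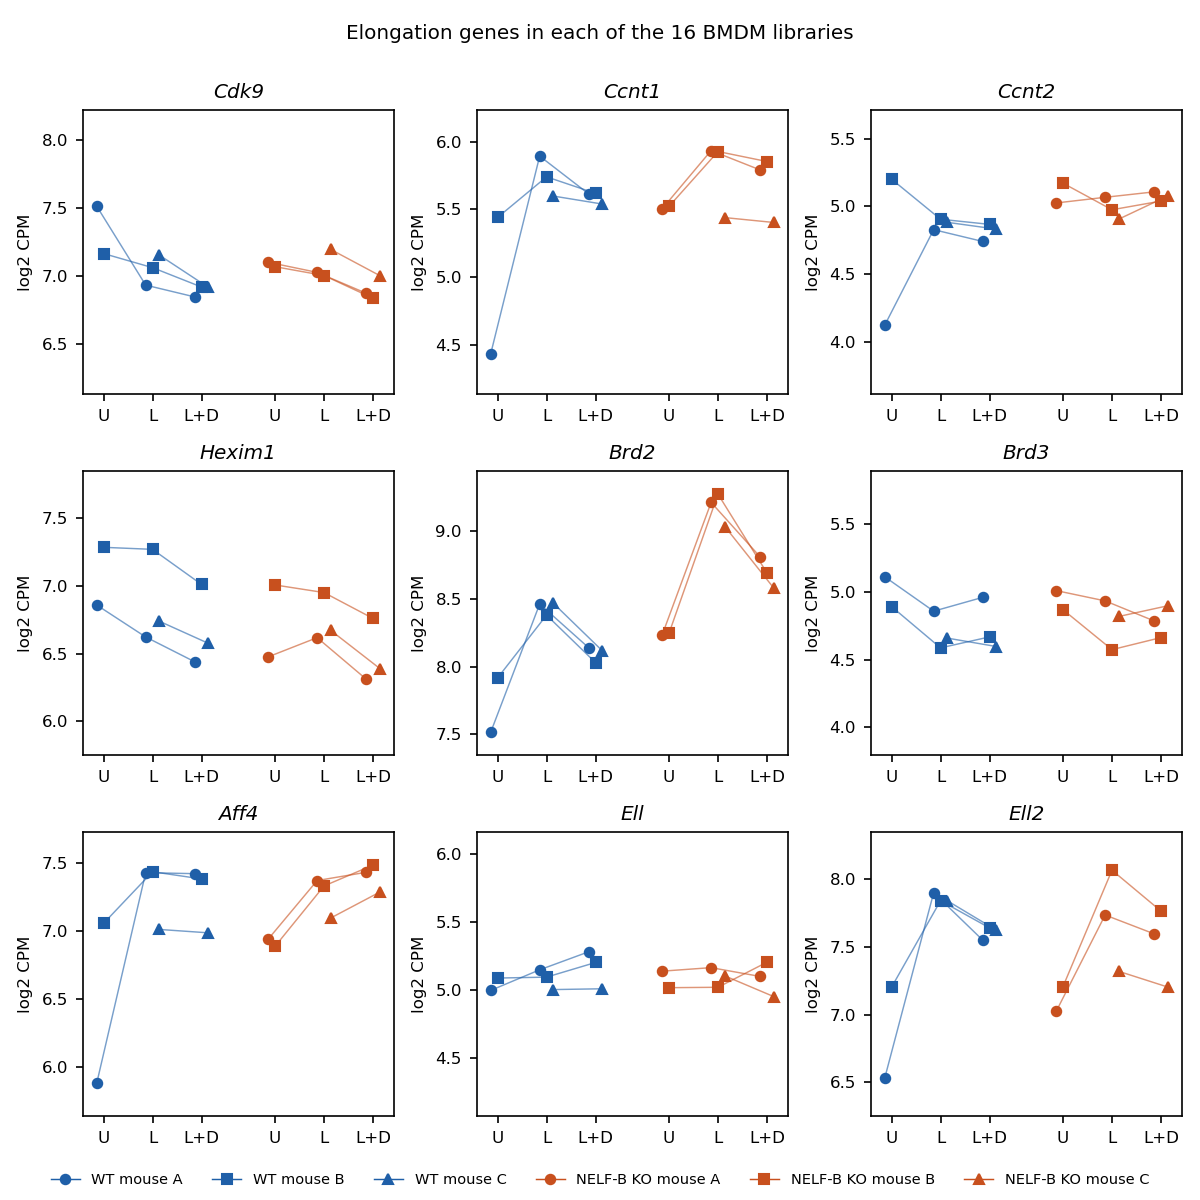
Each of the 9 genes in each of the 16 libraries (vertical axis, log2 CPM; every panel spans the same range of 2.1) for untreated (U), LPS (L) and LPS + Dex (L+D) BMDM of WT (blue) and NELF-B KO (orange) mice. Lines join libraries of the same mouse. *Brd2* is higher with LPS, lower with LPS + Dex than with LPS and higher in the KO, and the untreated WT library of mouse A lies far below that of mouse B for *Ccnt1*, *Ccnt2*, *Aff4* and *Ell2*.

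*Ell2*, an ELL family factor that raises the elongation rate of Pol 2, was at 6.53 and 7.20 log2 CPM in untreated WT mice A and B, and at 7.90, 7.84 and 7.84 with LPS in WT mice A, B and C. With LPS + Dex the WT mice were at 7.55, 7.64 and 7.62. In the KO it was at 7.02 and 7.21 in untreated cells, at 7.74, 8.07 and 7.32 with LPS and at 7.596, 7.76 and 7.20 with LPS + Dex. LPS libraries lay above untreated libraries in both genotypes, and LPS + Dex libraries lay below the LPS libraries without overlap in the WT, while in the KO they overlapped and mouse C was the lowest in both treatments. The rise with LPS was 1.99-fold in the WT (log2 difference 0.99, SE 0.23, adjusted p = 0.0174, limma). In the KO the log2 difference was 0.59 (SE 0.23), with an adjusted p of 0.31 without the block and of 0.0118 within mice (log2 difference 0.77, SE 0.14). Leaving out the untreated WT library of mouse A lowered the within-mouse rise in the WT to 0.67. The LPS responses of *Ell2* in the genotypes differed by -0.40, with a 95% interval from -1.09 to 0.29.

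*Ell*, the founding member of that family, varied little. Its lowest and highest values over the 16 libraries were 4.95 and 5.28 log2 CPM, the groups overlapped throughout, and it was not called in any of the 9 comparisons by the fit of 6 groups, by the fit with mouse as a block or by that fit without the untreated WT library of mouse A. The log2 difference with LPS was 0.04 in the WT (95% interval -0.21 to 0.29) and 0.02 in the KO (-0.23 to 0.27). Per kb, *Ell2* was above *Ell* in 15 libraries and below it in the untreated WT library of mouse A, and the log2 ratio of the other 3 untreated libraries, 0.22 to 0.53, lay below those of the LPS libraries, 0.56 to 1.39.

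Of the P-TEFb cyclins, *Ccnt1* was higher with LPS in each of 4 mice and *Ccnt2* was not. *Ccnt1* was at 4.43 and 5.44 log2 CPM in untreated WT mice A and B, at 5.89, 5.74 and 5.599 with LPS and at 5.61, 5.62 and 5.54 with LPS + Dex in WT mice A, B and C. In the KO it was at 5.50 and 5.52 in untreated cells, at 5.93, 5.93 and 5.44 with LPS and at 5.79, 5.85 and 5.40 with LPS + Dex. Within mice the rise with LPS was 0.30 to 1.46 on the log2 scale in WT mice and 0.41 to 0.43 in KO mice, and KO mouse C, without an untreated library, was below the untreated KO libraries in both treatments. The test of groups gave a log2 difference of 0.81 (SE 0.25, adjusted p = 0.0693) in the WT and 0.25 (SE 0.25, adjusted p = 1) in the KO. Within mice and without the untreated WT library of mouse A, the log2 difference was 0.32 in the WT and 0.41 (SE 0.05, adjusted p = 9.17e-05) in the KO. An antisense transcript on the opposite strand shares 7.59% of the exon bases of *Ccnt1*.

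*Ccnt2* ranged from 4.12 log2 CPM in the untreated WT library of mouse A to 5.20 in that of mouse B, which were the lowest and the highest of all 16 libraries. The LPS difference in the WT therefore changed sign with the library of mouse A. It was 0.21 (SE 0.22, adjusted p = 0.518) with it and -0.29 within mice and without it. In treated cells *Ccnt2* lay between 4.74 and 4.90 log2 CPM in the WT and between 4.91 and 5.11 in the KO. With LPS the lowest KO library (4.905) and the highest WT library (4.904) were level, and the group difference was 0.11 (SE 0.19). With LPS + Dex the KO libraries lay above the WT libraries without overlap, by 0.26 (SE 0.19). The latter was called only within mouse letters and without the untreated WT library of mouse A (SE 0.06, adjusted p = 0.0154, limma).

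*Cdk9*, the catalytic subunit of P-TEFb, ranged from 6.835 to 7.515 log2 CPM over the 16 libraries, with the highest value in the untreated WT library of mouse A. It was at 7.51 and 7.17 log2 CPM in untreated WT mice A and B, at 6.93, 7.06 and 7.15 with LPS and at 6.85, 6.92 and 6.92 with LPS + Dex in WT mice A, B and C. In the KO it was at 7.10 and 7.07 in untreated cells, at 7.03, 7.003 and 7.20 with LPS and at 6.87, 6.83 and 7.002 with LPS + Dex. Genotypes overlapped in the treated groups, while in untreated cells both KO libraries lay below both WT libraries. With LPS *Cdk9* was lower than in untreated cells by 0.58 in WT mouse A and 0.10 in WT mouse B on the log2 scale. In KO mice it was lower by 0.065 to 0.075. *Cdk9* was lower with LPS + Dex than with LPS in each of 6 mice, by 0.09 to 0.24 on the log2 scale. In the fit of 6 groups this was not called (log2 difference -0.16 in the WT and -0.17 in the KO, SE 0.11).

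*Hexim1*, the inhibitor that holds P-TEFb in the 7SK particle, followed the mouse more than the treatment. It was at 6.86 and 7.29 log2 CPM in untreated WT mice A and B, at 6.62, 7.27 and 6.74 with LPS and at 6.44, 7.01 and 6.58 with LPS + Dex in WT mice A, B and C. In the KO it was at 6.48 and 7.01 in untreated cells, at 6.62, 6.95 and 6.67 with LPS and at 6.31, 6.76 and 6.39 with LPS + Dex. Mouse B was the highest in all 6 groups. Groups therefore overlapped, yet *Hexim1* was lower with LPS + Dex than with LPS within each of 6 mice, by 0.16 to 0.26 on the log2 scale in the WT and by 0.19 to 0.31 in the KO. Within mice and without the untreated WT library of mouse A, *Hexim1* was lower with Dex by 0.20 in the WT (SE 0.04, adjusted p = 0.00516) and by 0.26 in the KO (SE 0.04, adjusted p = 0.000661), and *Cdk9* by 0.16 (adjusted p = 0.0112) and 0.17 (adjusted p = 0.00514). The same fit with that library gave the same differences and no call for either gene, since the library enters these comparisons only through the estimated spread.

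*Aff4*, the scaffold of the super elongation complex, was at 5.88 and 7.06 log2 CPM in untreated WT mice A and B, at 7.43, 7.44 and 7.01 with LPS and at 7.42, 7.39 and 6.99 with LPS + Dex in WT mice A, B and C. In the KO it was at 6.94 and 6.89 in untreated cells, at 7.37, 7.33 and 7.10 with LPS and at 7.43, 7.49 and 7.29 with LPS + Dex. LPS-treated cells were higher than untreated cells of the same mouse in each of 4 mice, by 0.38 to 1.56 on the log2 scale. The log2 difference in the WT was 0.83 (SE 0.27, adjusted p = 0.0831) between groups and 0.97 (SE 0.23, adjusted p = 0.0308) within mice. Without the untreated WT library of mouse A it was 0.37 within mice, beside 0.43 in the KO (SE 0.04, adjusted p = 4.49e-06). Of the 9 genes, *Aff4* and *Ccnt2* have the longest exons. For *Aff4* and *Ccnt1* mouse C was the lowest in all 4 groups that include it. This did not hold for *Ccnt2*, where with LPS WT mouse C (4.88) was above WT mouse A (4.83). With LPS + Dex KO mouse C (5.08) was above KO mouse B (5.04) for *Ccnt2*. Whether exon length plays a part was not tested.

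*Brd3*, the other BET gene of the list, was at 4.57 to 5.11 log2 CPM in all libraries. It was lower with LPS in each of 4 mice, by 0.08 to 0.31 on the log2 scale, and its groups overlapped in the KO. The log2 difference with LPS was -0.30 in the WT (SE 0.15, adjusted p = 0.204) and -0.16 in the KO (SE 0.15, adjusted p = 1), and it was called in the KO only within mice and without the untreated WT library of mouse A (-0.20, SE 0.07, adjusted p = 0.0409). *Brd2* was above *Brd3* per kb in every library, by 2.31 to 4.61 on the log2 scale.

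Across the list, the fit of all 16 libraries in 6 groups called 2 of 9 members for LPS in the WT (*Brd2* and *Ell2*, both higher), where 6.91% of all genes were called. In the KO it called 1 of 9 (*Brd2*), where 4.01% of all genes were called. With mouse as a block the counts were 4 of 9 in the WT (*Ccnt1*, *Brd2*, *Aff4* and *Ell2*, 13.8% of all genes) and 2 of 9 in the KO (*Brd2* and *Ell2*, 7.32%). Within mice and without the untreated WT library of mouse A, 4 members were called higher and 1 lower in the KO, where 27.9% of all genes were called. The 4 were *Brd2*, *Ell2*, *Ccnt1* and *Aff4*, and their differences in the WT were also positive in that fit. By sign, these 4 and *Ell* were higher with LPS in each of 4 mice, as were 21.9% of all genes, and *Cdk9* and *Brd3* were lower in each, as were 18.7%. The median log2 difference of the 9 members with LPS in the fit of 6 groups was 0.21 for WT cells and 0.02 for KO cells, beside 0.02 and -0.01 over all genes. Within mice and without the untreated WT library of mouse A these medians were 0.02 and 0.05, beside 0.004 and -0.01 over all genes.

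**Figure D3:**
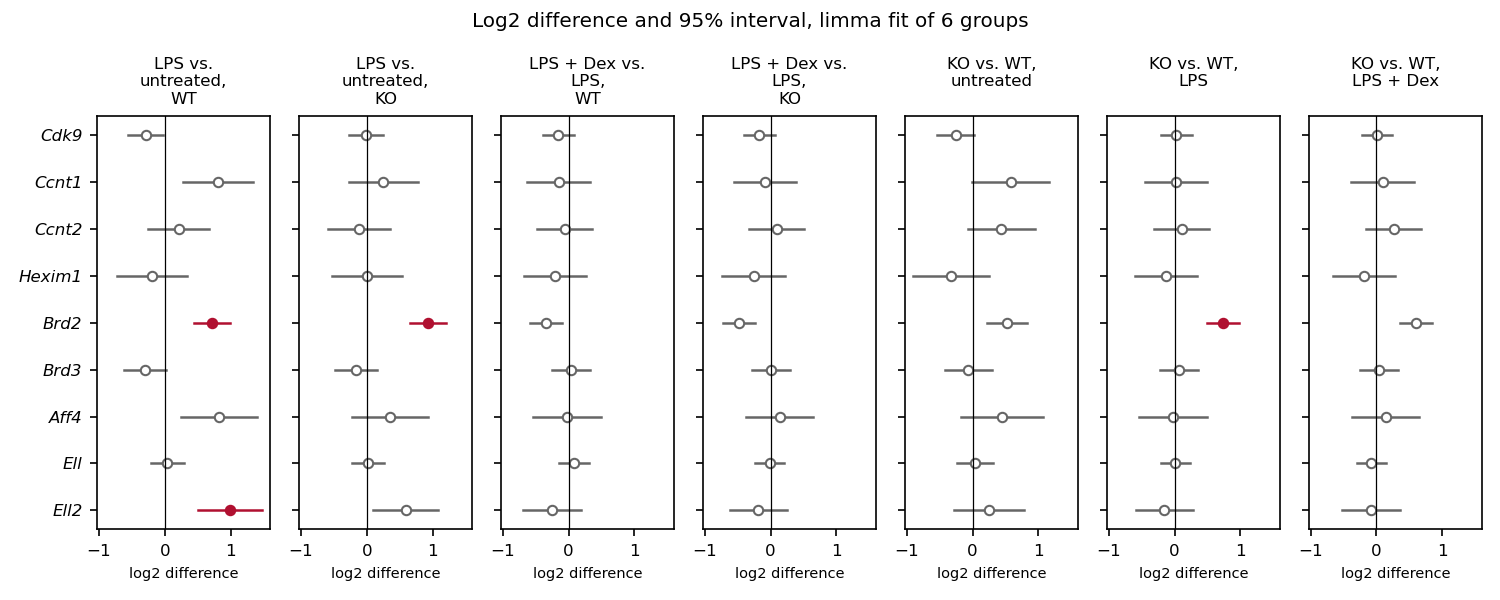
Log2 difference (horizontal axis) and 95% interval of each of the 9 genes in 7 comparisons, from the limma fit of all 16 libraries in 6 groups. Filled red points passed an adjusted p of 0.05 over 9614 genes, which holds for *Brd2* and *Ell2* with LPS in the WT, *Brd2* with LPS in the KO and *Brd2* in KO against WT cells with LPS.

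For Dex the fit of 6 groups called 0 of 9 members in either genotype, where limma called 0.749% of all genes in the WT and 0.895% in the KO, and 1 member (*Brd2*) had an unadjusted p under 0.05 in each. The block called 0 of 9 in the WT (2.19% of all genes). By sign, 5 of the 9 members (*Cdk9*, *Ccnt1*, *Hexim1*, *Brd2* and *Ell2*) were lower with LPS + Dex than with LPS in each of 6 mice, as were 10.4% of all genes, and 0 of 9 were higher in each, as were 9.16%. Within mice and without the untreated WT library of mouse A, 4 members were lower in the WT (9.62% of all genes called) and the same 4, *Brd2*, *Hexim1*, *Ell2* and *Cdk9*, were lower in the KO, with *Aff4* higher by 0.14 (13.0% of all genes called). These 4 included members that the same fit called higher with LPS (*Brd2*, *Ell2*) and members that it did not (*Hexim1*, *Cdk9*). The LPS libraries enter both comparisons. None of the 9 members was called for a difference of the Dex response between the genotypes by any of these 3 limma fits, and 0 of all genes were. An unadjusted p under 0.05 was given there by 0 members in the fit of 6 groups and in the blocked fit. Of all 9614 genes, 0 and 27 had such a value in these fits.

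**Figure D4:**
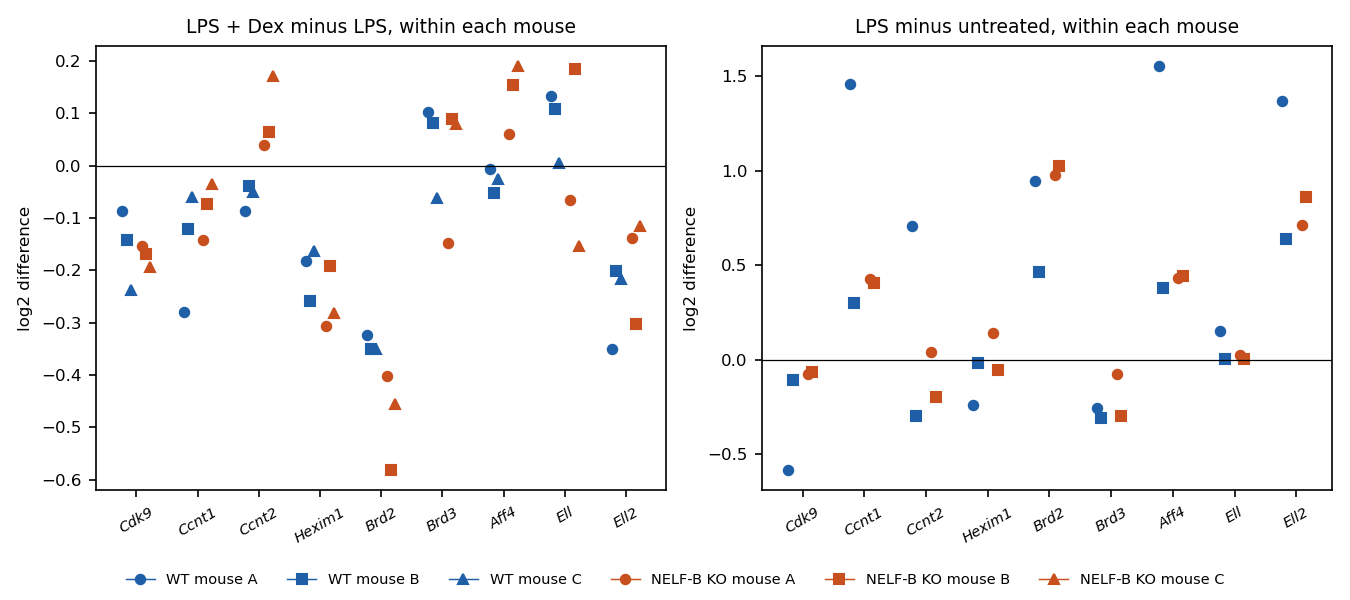
Log2 difference within each mouse (vertical axis) for the 9 genes, LPS + Dex minus LPS on the left (6 mice) and LPS minus untreated on the right (4 mice), for WT (blue) and NELF-B KO (orange) mice. *Brd2*, *Hexim1*, *Ell2*, *Cdk9* and *Ccnt1* lie below 0 in all 6 mice on the left, and WT mouse A stands above the other mice for *Ccnt1*, *Ccnt2*, *Aff4* and *Ell2* on the right.

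Between genotypes *Brd2* was the only member called by the fit of 6 groups, with LPS. In untreated cells *Ccnt1*, *Aff4* and *Ccnt2* had log2 differences of 0.58, 0.45 and 0.44, and without the untreated WT library of mouse A, within mouse letters, those of *Aff4* and *Ccnt2* changed sign, to -0.15 and -0.08, and that of *Ccnt1* was 0.07. In untreated cells 0 of 9 were called by limma, where 0.0104% of all genes were. There 1 member had an unadjusted p under 0.05, as had 1464 of all 9614 genes. With LPS + Dex 0 of 9 were called, where 0.114% of all genes were. Again 1 member (*Brd2*) had an unadjusted p under 0.05, as had 762 of all 9614 genes. With the mouse letter as a block, *Brd2* was the only member called with LPS (1.09% of all genes) and with LPS + Dex (1.77%), and 0 of 9 were called in untreated cells (0.0312% of all genes, and 0.0936% with the untreated WT library of mouse A left out). *Hexim1* was lower in the KO than in the WT mouse of the same letter in each of 8 pairs of libraries, by 0.005 to 0.38 on the log2 scale. These come from 3 mice per genotype and are not 8 independent pairs, and the labels do not state a pairing of WT and KO mice. The share of all genes with this pattern was not counted. *Hexim1* was called once, with LPS + Dex within letters and without the untreated WT library of mouse A (-0.19, SE 0.06, adjusted p = 0.0402, limma, 18.7% of all genes called).

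Of a wider list of 42 elongation genes, 33 were in the table: 4 partners of 7SK and P-TEFb, 5 of the super elongation complex and ELL, 6 of the PAF complex, 9 other elongation factors and 9 kinases, cyclins and phosphatases of the Pol 2 tail. In the fit of 6 groups 1 of the 33 was called in 1 of the 9 comparisons, LPS in the WT, where 6.91% of all genes were called. This was *Mepce*, the enzyme that caps 7SK RNA, which was lower with LPS in the WT (log2 difference -0.60, SE 0.17, adjusted p = 0.0497), and lay at 6.05 log2 CPM in the untreated WT library of mouse A against 5.27 in that of mouse B. Without the former the difference within mice was -0.19. With mouse as a block and all libraries the call was lost (adjusted p = 0.0546), when limma called 0 of the 33 in any comparison. In these fits 0 to 10 of the 33 had an unadjusted p under 0.05. The 10 were for KO against WT in untreated cells, where 2641 of all 9614 genes had such a value. Without the untreated WT library of mouse A the block called 8 of 33 in the KO with LPS (5 higher and 3 lower), a share below the 27.9% of all genes. *Paf1*, a PAF complex subunit, and *Cdk12*, a kinase of the Pol 2 tail, were higher with LPS in the KO in that fit, by 0.39 and 0.38. In the WT, with mouse B as the only untreated library, they were higher by 0.29 and 0.24. Within WT mouse A *Paf1* was lower with LPS by 1.22 and *Cdk12* higher by 1.86, so the direction of *Paf1* in the WT depends on that library. With Dex the same fit called 2 of 33 in the WT (9.62% of all genes) and 3 of 33 in the KO (13.0%). *Aff1*, a paralogue of *Aff4*, was higher with Dex, by 0.23 on the log2 scale in the WT and 0.30 in the KO, while *Cdk12* was lower by 0.19 in the WT and *Paf1* and *Leo1* were lower by 0.16 and 0.18 in the KO. These genes were chosen after their values were seen.

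Over the 16 libraries the gene whose log2 CPM was most like that of *Brd2* was *Bcl2l11* (Pearson's r = 0.962), which encodes the pro-apoptotic protein Bim, followed by *Tob1* (r = 0.937). For *Ell2* these were *Reps1* (r = 0.958) and *Clic4* (r = 0.957), for *Ccnt1* *Nab1* (r = 0.976) and *Cdk17* (r = 0.973), and for *Aff4* *Kdm7a* (r = 0.983) and *Ddx3x* (r = 0.982). For *Cdk9* they were *Ubtd1* (r = 0.934) and *Spsb2* (r = 0.924), for *Ccnt2* *Smg1* (r = 0.952) and *Srrm2* (r = 0.942), for *Hexim1* *Pea15a* (r = 0.962) and *Smyd5* (r = 0.936), for *Brd3* *Tctn3* (r = 0.910) and *Atg12* (r = 0.893), and for *Ell* *St6gal1* (r = 0.759) and *2310067B10Rik* (r = 0.724). Libraries share mice and treatments, so these values describe likeness only. Without the untreated WT library of mouse A the r of *Brd2* with *Bcl2l11* was 0.948, and that of *Ccnt2* with *Srrm2* fell to 0.769. Among the members, *Ccnt1* and *Aff4* had the highest r, 0.914 over 16 libraries and 0.677 over the 15 without that library, and *Ccnt1* and *Ell2* had 0.877 and 0.812. *Ccnt1* and *Ccnt2*, the alternative cyclins of P-TEFb, had 0.701 over 16 libraries and -0.12 over the 15.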

How the data were processed

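RNA was sequenced from 16 libraries of BMDM with polyA selection. The authors aligned 50 bp paired reads to mm10 with the CLC Bio Genomic Workbench, took reads unique to the exons of a gene, scaled them in edgeR by the weighted trimmed mean and deposited log2 CPM for 9614 genes. The filter behind that number, the strand setting and the edgeR version are not given in the sources used here. The deposited p-values and FDR values of the authors' own 9 pairwise comparisons were not used. Reads were recovered from the equal steps of the CPM values: 100.0% of values under 3 CPM were whole within 0.25 reads. Intervals of counting error were not needed at this depth.

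The test was limma 3.58.1 under R 4.3.3 (lmFit, contrasts.fit and eBayes with a variance trend) on the deposited log2 values, with 6 groups and Benjamini-Hochberg adjustment over all genes. A call is an adjusted p under 0.05. Log2 values were used without a pseudocount or further filter, and a count model could not be the main test on this unit. Figures and other values were made in matplotlib 3.10.9, pandas 2.3.3 and numpy 2.4.6 under Python 3.11.15. The fit was tested on simulated data. Same-numbered libraries came from the same mouse per the labels. Their deviations from group means were correlated across genes, at r = 0.781 to 0.939 between LPS and LPS + Dex and at 0.185, 0.561, 0.738 and 0.822 between untreated and LPS. The mouse was the block in treatment comparisons. Libraries of WT and KO were blocked by mouse letter. For B, a date-like string is in the labels of the KO libraries and of the untreated WT library, but not of the treated WT libraries. For C, labels of both genotypes hold an S-number, with different numbers. A names the remaining mice. The labels do not explain these strings or state that mice of a letter belong together. Libraries of a group came from separate mice.

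The 9 members, the wider list and the markers were chosen with earlier results of these data known. Named genes were all members, wider-list genes that were called with a log2 difference over 0.58 with treatment or called between genotypes, Nelfb, and the 2 genes most like each member by Pearson's r. Paf1, Cdk12, Aff1 and Leo1 were named beyond this rule, after their values were seen. Gene positions and exon lengths (9211 of 9614 genes) are from GENCODE vM21 and promoter windows from RefSeq, GRCm38.p6. Alternatives were the replicate block, only the libraries compared, only mice A and B, a mean log2 CPM above 1, log2(CPM + 1), centring on the median gene, voom on the recovered reads, a fold over 1.5 and leaving out each library. The block without the untreated WT library of mouse A was added after seeing the data.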

Additional observations from a re-analysis of the deposited data

Results flagged for a closer look

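The Dex response of *Ccnt2* was negative in all 3 WT mice (-0.04 to -0.09) and positive in all 3 KO mice (0.04 to 0.17), with a difference of 0.15 on the log2 scale between the genotypes. That of *Aff4* was likewise negative in all 3 WT mice (-0.01 to -0.05) and positive in all 3 KO mice (0.06 to 0.19), with a difference of 0.16. Both were singled out from the members because every WT mouse moved opposite to every KO mouse. The share of all genes with this pattern was not counted, so how unusual it is was not tested. The limma test of the difference gave an adjusted p of 1 for each. The LPS response of *Brd2* was larger in the KO than in the WT by 0.54 within mice and without the untreated WT library of mouse A. That leaves mouse B as the only untreated WT library, and no other setting tried called the difference. The rise was 0.95 in WT mouse A, beside 0.98 and 1.03 in KO mice A and B.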

How the results depend on the processing

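Several calls on members depended on the block and on the untreated WT library of mouse A. In comparisons that do not use that library, its omission changed only the estimated spread. Why that library stood apart was not tested. With the replicate block, members called rose from 2 to 4 for LPS in the WT, from 1 to 2 for LPS in the KO, from 0 to 1 for Dex in the KO and from 0 to 1 for KO against WT with LPS + Dex, and no other member count changed. With that library also left out, an alternative chosen after seeing the data, the counts were 5 for LPS in the KO, 4 and 5 for Dex (WT and KO) and 3 for KO against WT with LPS + Dex. The untreated WT group is then the library of mouse B alone and is assumed to vary like the other groups. *Ccnt2* with LPS in the WT turned from 0.21 to -0.29. Only the libraries compared, or only mice A and B, left 0 members called for LPS in the WT and 0 for KO against WT with LPS, where the fits have few residual degrees of freedom. Leaving out each library in turn gave 1 to 6 members for LPS in the WT, 0 to 1 for Dex in the KO, 0 to 5 for KO against WT in untreated cells, 0 to 1 with LPS, 0 to 1 with LPS + Dex and 0 to 4 for the difference of the LPS response. The upper ends of 6, 5 and 4 came from leaving out the untreated WT library of mouse B, when the library of mouse A stands alone and is assumed to vary like the other groups. For the fits that leave out a library, the share of all genes called is not given here. Their counts therefore do not show whether the members differ from other genes. The other settings (a mean log2 CPM above 1, log2(CPM + 1), centring, voom on recovered reads and a fold over 1.5) left each count of members within 1.5 times. Over single members, 1880 of 2025 alternative values kept their direction and side of the threshold, 13 lost a call and 41 gained 1. Another 91 changed direction, 90 of them with no call on either side. Leaving out the untreated WT library of mouse A alone turned *Ccnt2* with LPS in the WT to -0.33 and, for KO against WT in untreated cells, *Ccnt2* to -0.10 and *Aff4* to -0.14. Depth did not limit these genes, with at least 383 reads in each library.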
